A study of Homo sapiens with 14 samples.

Results

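The heat shock and chaperone genes described here are all rows of the deposited expression table whose symbol starts with HSPA, HSPB, HSPD, HSPE, HSPH, HSP90 or DNAJ, or is CCT followed by a digit. The 71 matching names held 3 pseudogenes (CCT6P1, CCT6P3 and HSP90AB4P) and the noncoding gene DNAJC27-AS1, which were left out, so 67 of 13734 genes remained. By family they were 10 HSP70 genes, 3 HSP110 genes (HSPH1, HSPA4 and HSPA4L), 3 HSP90 genes, the chaperonin pair HSPD1 and HSPE1, 8 CCT subunits, 4 genes named HSPB, and 3 DNAJA, 9 DNAJB and 25 DNAJC genes. The names HSPBAP1 and HSPBP1 share the HSPB letters, but their products are not small heat shock proteins.

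The study measured total RNA of MDA-MB-231, an established human breast cancer cell line of mesenchymal type, after loss or inhibition of factors that drive transcription. There were 7 groups of 2 libraries, and all groups were the same cell line without a genetic change. The transfected groups received control siRNA, a YAP/TAZ siRNA mix (called mix 1 or mix 2, for 48 h), or a BRD siRNA mix against BET genes (called mix A or mix B, for 72 h). The other groups received JQ1, a small-molecule inhibitor of BET bromodomains, at 1 µM for 24 h, or DMSO, its vehicle. When the cells with control siRNA and DMSO were harvested is not in the labels, which also do not say whether replicates were separate cultures. P-values therefore measure the spread between these libraries, which may be technical. YAP and TAZ are transcriptional coactivators held in check by the Hippo pathway, and BET proteins bind acetylated chromatin.

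Chaperones help other proteins to fold, to assemble and to avoid aggregation. HSP70 proteins bind short stretches of unfolded chain in a cycle driven by ATP, J-domain proteins (the DNAJ families) bring substrates and start the ATP hydrolysis, and HSP110 proteins exchange the nucleotide. HSP90 finishes the folding of kinases and receptors, the ring-shaped CCT complex folds actin and tubulin, and separate sets of chaperones serve the mitochondrion and the endoplasmic reticulum (ER). Some members are made at all times, and others are induced by heat shock factor 1 (HSF1) or by the unfolded protein response of the ER.

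Recovered read totals ran from 15741695 to 37311326 per library. The targeted transcripts given here were lower in the libraries labelled with the matching siRNA: YAP1 was 174 to 190 with control siRNA and 18.6 to 24.2 with the YAP/TAZ mixes, in the deposited normalised read count (scaled RPM). WWTR1, the gene of TAZ, was 126 to 135 against 12.7 to 17.2. BRD2 was 251 to 252 with control siRNA and 154 to 204 with the BRD mixes, and BRD3 29.7 to 32.5 against 9.05 to 10.6. All 6 markers written for the cell line were present, at a summed level of 4916 to 13580, averaging 8197 with DMSO and 13410 with JQ1. The luminal list had 2 of 5 genes in the table (ERBB3 and EPCAM), at a mean summed level of 23.9 with control siRNA, 29.7 and 43 with YAP/TAZ mixes 1 and 2, 13.8 and 12.6 with BRD mixes A and B, 24.4 with DMSO and 18.7 with JQ1. The leukocyte list had 2 of 5 genes (CD14 and LYZ), whose summed level was 6.87 on average with control siRNA and 29.4 and 28.2 with the YAP/TAZ mixes. PECAM1, the only endothelial marker of 3 in the table, and 2 of 4 fibroblast markers (COL1A1 and PDGFRB) also averaged more with those mixes, 13.5 and 6.74 against 1.88, and 29.6 and 25.3 against 9.68. The part of any of these markers in the chaperone results was not tested.

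All 67 members passed the filter on low values (at least 1 RPM in at least 2 libraries) and 0 were at 0 in any library, while 5 were under 1 RPM in some library. With YAP/TAZ siRNA, 20 members rose, 33 fell and 14 did not pass the test, where 43.1% of all 13674 genes tested rose and 35.9% fell. With BRD siRNA, 23 rose, 31 fell and 13 did not pass, against 37.6% of all genes higher and 37.6% lower. With JQ1, 22 rose, 32 fell and 13 did not pass, against 37.6% higher and 36.3% lower. A call means an adjusted p under 0.05 from 1 limma model of log2(RPM + 1) over all genes and libraries, a scale that understates the change of low genes. The members' median log2 fold change was -0.19 with YAP/TAZ siRNA, -0.043 with BRD siRNA and -0.16 with JQ1, beside 0.073, -0.0047 and 0.012 for all genes tested. Changes of at least 2-fold were called for 12, 3 and 12 members, where 17.9%, 13.3% and 17.5% of all genes had one, so the first and last counts are at the background. Members called with no overlap between the groups numbered 43 with YAP/TAZ siRNA, 44 with BRD siRNA and 54 with JQ1, where 63.2%, 62.5% and 73.9% of all genes were. Called in either direction, with or without overlap, were 78.9%, 75.2% and 73.9% of all genes. The YAP/TAZ siRNA and BRD siRNA comparisons share the control siRNA libraries, so their values are given side by side and no likeness between them is tested.

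All members together held 16820 and 15870 RPM in the 2 control siRNA libraries, between 10054 and 10848 RPM in the 4 YAP/TAZ siRNA libraries, and between 14382 and 15896 RPM in the 4 BRD siRNA libraries. They held 21680 and 20911 RPM with DMSO and 16038 and 16356 RPM with JQ1. Every YAP/TAZ siRNA library lay below both control siRNA libraries and both JQ1 libraries lay below both DMSO libraries, whereas 1 BRD siRNA library (15896 RPM) lay just above the lower control. These are scaled levels and not amounts per cell, so fewer cells with a transcript and less of it per cell cannot be told apart. As a percent of each library's summed values, members held 1.75 and 1.67 with control siRNA and 1.38 to 1.49 with BRD siRNA. On that measure all 4 BRD siRNA libraries lay below both controls.

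**Figure D1:**
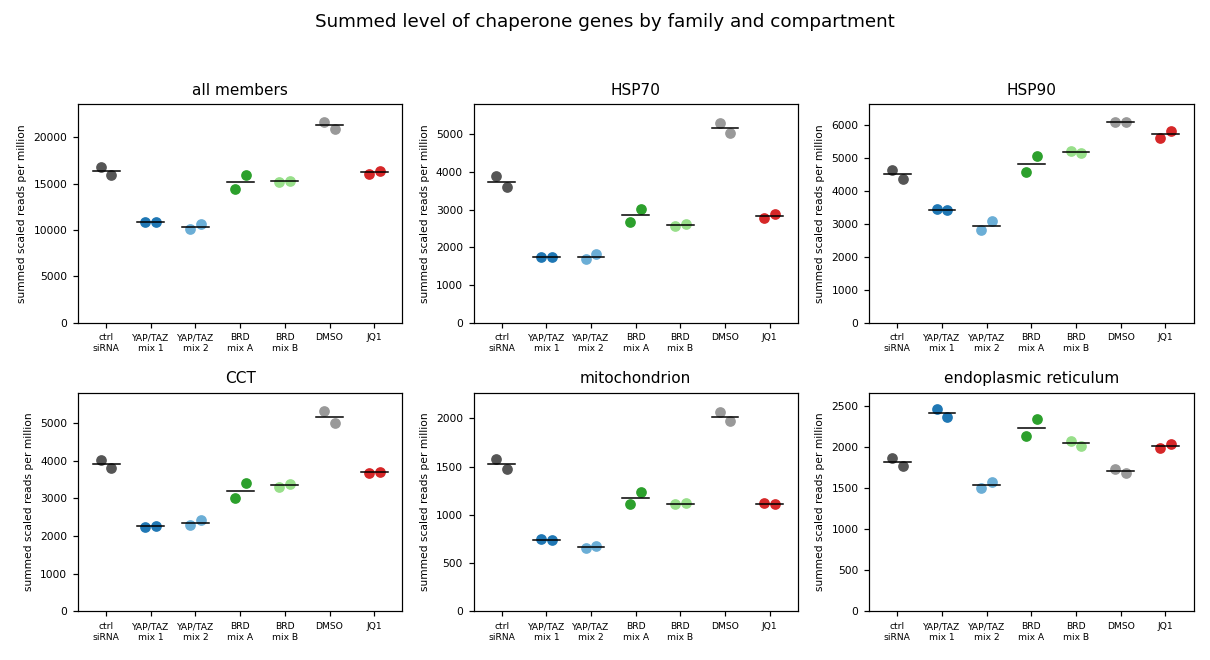
Summed scaled RPM (y axis, from 0) of all 67 members, of 3 families and of the mitochondrial and ER members in each of the 7 groups (x axis). Dots are the 2 libraries of a group and the line is their mean. The YAP/TAZ siRNA libraries are lowest in every panel except the ER panel, where mix 1 is the highest group (2460 and 2359) and mix 2 the lowest (1501 and 1567).

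**Figure D2:**
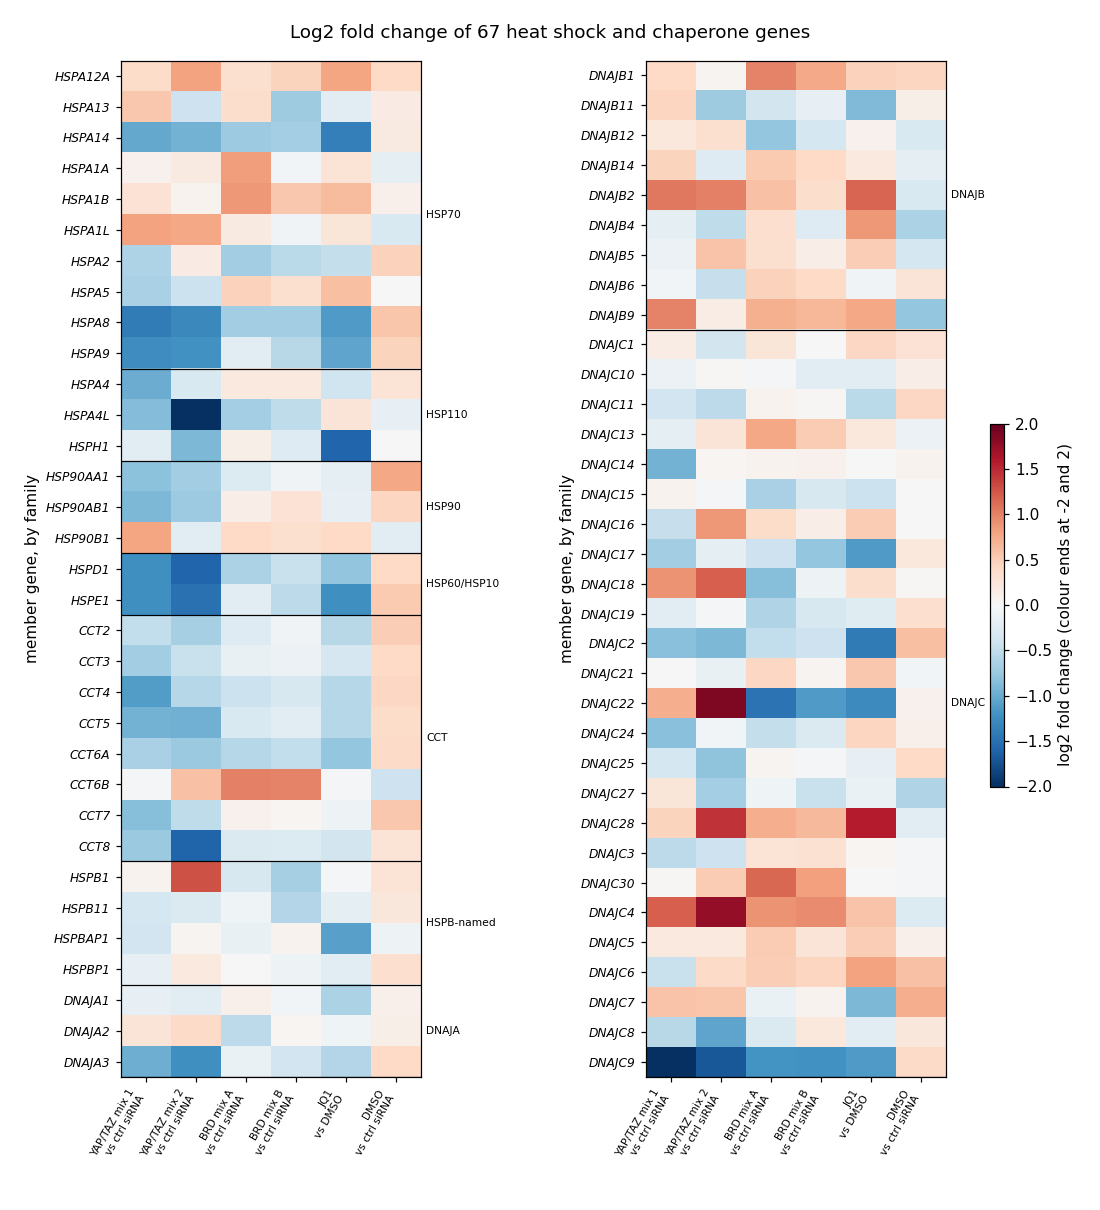
Log2 fold change (colour, ending at -2 and 2) of each of the 67 members (y axis, by family) for each siRNA mix against control siRNA, JQ1 against DMSO and DMSO against control siRNA (x axis). HSPD1, HSPE1, HSPA8, HSPA9, HSPA14 and DNAJC9 are blue in all 5 treatment columns, as are the CCT rows except CCT6B and CCT7.

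HSPA8, the constitutive cytosolic HSP70 (HSC70), was 2680 and 2486 RPM with control siRNA, 967 and 991 with YAP/TAZ mix 1, 997 and 1110 with mix 2, 1500 and 1675 with BRD mix A, and 1559 and 1628 with mix B. It was 3900 and 3660 with DMSO and 1690 and 1767 with JQ1. No treated library overlapped its controls. The log2 fold change was -1.35 (SE 0.064, limma adjusted p = 5.87e-14) with YAP/TAZ siRNA, -0.70 (SE 0.064, adjusted p = 3.32e-09) with BRD siRNA and -1.13 (SE 0.074, adjusted p = 1.63e-11) with JQ1. Reads of HSPA8, as of HSPD1, HSP90AB1, HSPE1 and CCT6A, can be shared with processed pseudogenes, and the labels do not say how the counting treated such reads.

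Per kilobase of exon, HSP90AB1 (824 RPM per kb) and HSPA8 (533 RPM per kb) had the highest levels of all members with control siRNA, followed by HSP90AA1 (230 RPM per kb). HSP90AB1, the constitutive cytosolic HSP90, was 2521 and 2391 RPM with control siRNA, 1302 and 1335 with YAP/TAZ mix 1, and 1440 and 1541 with mix 2. The 4 YAP/TAZ siRNA libraries lay below both controls, at a log2 fold change of -0.81 (SE 0.061, adjusted p = 1.22e-10). With BRD siRNA it was 2567 and 2832 in mix A and 2972 and 3018 in mix B, all above the controls, with a log2 fold change of 0.21 (adjusted p = 0.00407). That small rise depended on the setting: it was -0.24 after quantile normalization, -0.22 against the DMSO libraries, and 0.17 (adjusted p = 0.059) without control siRNA replicate 2. With DMSO it was 3320 and 3293 and with JQ1 2921 and 2986, a log2 fold change of -0.16 (adjusted p = 0.0437). Leaving out any 1 of these 4 libraries ended that call, with adjusted p of 0.0899 to 0.161.

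HSP90AA1, the inducible cytosolic HSP90, was 1267 and 1151 RPM with control siRNA, 677 and 684 with YAP/TAZ mix 1, and 693 and 794 with mix 2. Its log2 fold change with YAP/TAZ siRNA was -0.76 (SE 0.068, adjusted p = 1.77e-09), and the groups did not overlap. BRD siRNA gave 917 and 1084 (mix A) and 1167 and 1135 (mix B), which overlapped the controls, at a log2 fold change of -0.17 (adjusted p = 0.0274). DMSO gave 2057 and 2093 and JQ1 1757 and 1881, at a log2 fold change of -0.19 (adjusted p = 0.0349). Both small falls were lost without single libraries: the BRD fall on leaving out replicate 1 of control siRNA (adjusted p = 0.29), replicate 1 of mix A (0.0905) or replicate 2 of mix B (0.0639), and the JQ1 fall without DMSO replicate 1 (0.0787), DMSO replicate 2 (0.119) or JQ1 replicate 1 (0.216).

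HSF1 binds heat shock elements, which are repeats of GAA in alternating orientation. In the RefSeq promoter windows of build GRCh38.p14 (250 bases before to 50 after each start), 61 of the 67 members had an entry. The letters GAANNTTC or TTCNNGAA, searched on both strands, occurred in the promoters of 16 of these 61 genes (26.2%) and of 14% of all 27305 genes in the table. The 30 bases shown for the most abundant HSP70 gene and for the inducible HSP90 gene hold such pairs in capitals, and 2 pairs of each gene overlap at a shared GAA. A match describes letters only. Measured to the RefSeq start they lie upstream, but all 30 bases of both stretches also fall in a UTR that GENCODE 29 annotates. The HSPA8 stretch lies 60 to 31 bases before the start on the minus strand (chr11:123062167-123062196), and that of HSP90AA1 lies 90 to 61 bases before the start on the minus strand (chr14:102087105-102087134).
HSPA8: gccccTTCTGGAAGGTTCtaagatagggta
HSP90AA1: tcTTCCGGAAGGTTCgggaggcTTCTGGAA

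**Figure D3:**
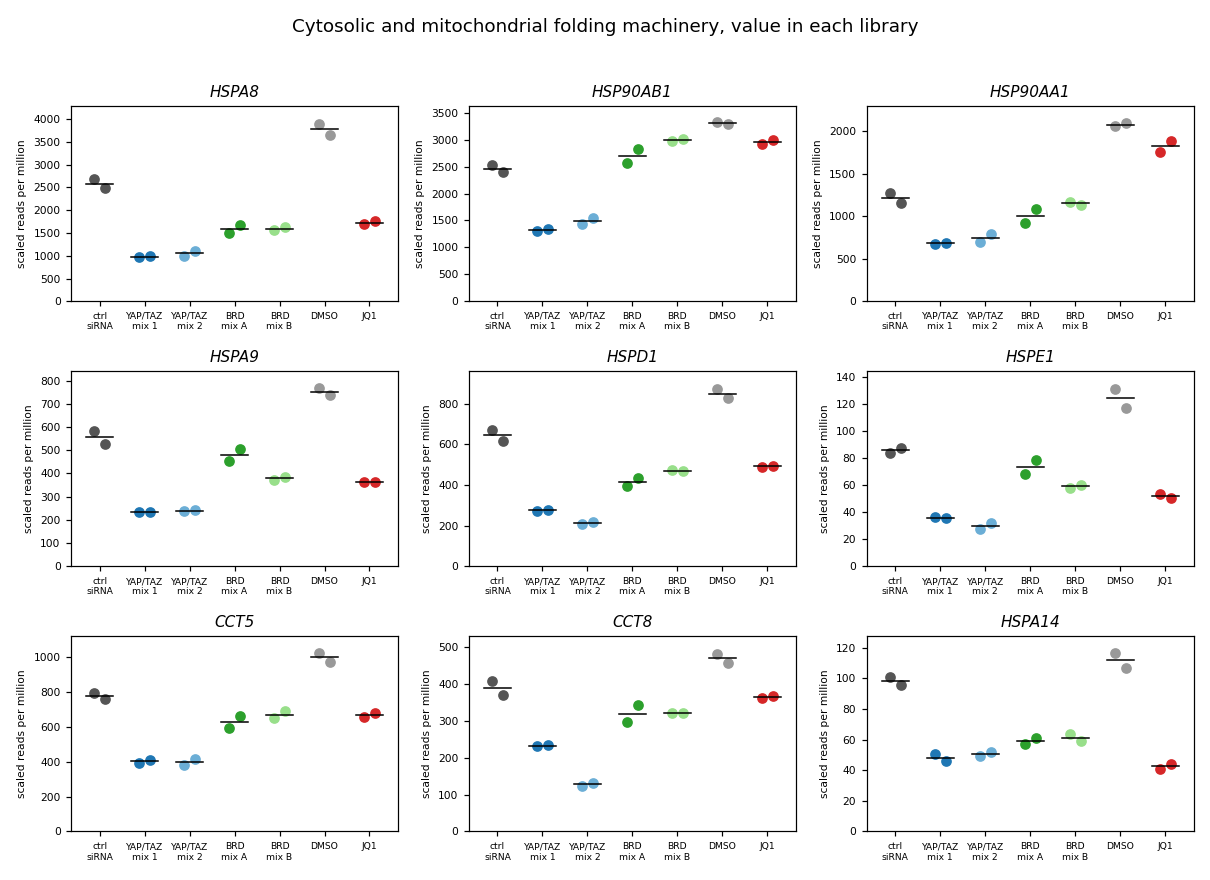
Scaled RPM (y axis, from 0) of 9 cytosolic and mitochondrial members in the 7 groups (x axis). Dots are the 2 libraries of a group and the line is their mean. In all 9 panels every YAP/TAZ siRNA library lies below both control siRNA libraries, and every JQ1 library lies below both DMSO libraries.

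The HSP110 genes are nucleotide exchange factors of HSP70. HSPH1, their heat-inducible form, was 259 and 243 RPM with control siRNA, 220 and 213 with YAP/TAZ mix 1, 131 and 136 with mix 2, 271 and 275 with BRD mix A, and 213 and 205 with mix B. With DMSO it was 252 and 247, and with JQ1 it was 79.4 and 86.2. The JQ1 libraries were thus the lowest of all 14, and the BRD mixes lay on either side of the controls. HSPH1 fell with JQ1 by 1.58 on the log2 scale (SE 0.056, adjusted p = 7.2e-16) and with YAP/TAZ siRNA by 0.56, while the change with BRD siRNA was -0.07 (adjusted p = 0.193). The JQ1 effect was lower than the BRD siRNA effect by a log2 difference of -1.51 (SE 0.074, adjusted p = 9.74e-13) and lower than the YAP/TAZ siRNA effect by -1.02 (SE 0.074, adjusted p = 1.78e-10). The BRD mixes taken alone gave HSPH1 changes of 0.12 for mix A and -0.26 for mix B. Over both mixes the HSPH1 change with BRD siRNA was called lower with upper-quartile scaling (-0.11), plain library totals (-0.20) and quantile normalization (-0.17).

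HSPA4L, a further HSP110 gene, went the other way with JQ1. It was 78.6 and 69.6 RPM with control siRNA, 40.6 and 39.9 with YAP/TAZ mix 1, 16.3 and 16.4 with mix 2, and 43.9 to 52.1 in the 4 BRD siRNA libraries, against 66.8 and 65.1 with DMSO and 77.3 and 80.9 with JQ1. It fell with YAP/TAZ siRNA by 1.49 (SE 0.058, adjusted p = 2.32e-15) and with BRD siRNA by 0.60, and rose with JQ1 by 0.26 (adjusted p = 0.0017). The difference between the JQ1 effect and the YAP/TAZ siRNA effect, 1.75 (SE 0.089, adjusted p = 8.74e-13), was the largest positive one of any member. HSPA4 itself, at 395 and 359 RPM with control siRNA, was 186 to 310 with YAP/TAZ siRNA (log2 fold change -0.66), 418 to 443 with BRD siRNA (0.19) and 336 and 351 with JQ1 against 462 and 446 with DMSO (-0.40). The BRD siRNA rise of HSPA4 was not called without control siRNA replicate 2 (adjusted p = 0.0668), and it became -0.08 against the DMSO libraries.

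Among the stress-inducible genes, DNAJB1 and HSPA1B rose with BRD siRNA and JQ1, and HSPH1 and HSPB1 did not. DNAJB1 (HSP40), the J-domain partner of inducible HSP70, was 186 and 187 RPM with control siRNA, 245 and 245 with YAP/TAZ mix 1, 192 and 197 with mix 2, 359 and 386 with BRD mix A, and 311 and 321 with mix B. DMSO gave 247 and 254 and JQ1 358 and 336. All 4 BRD siRNA libraries were above every control, DMSO included. DNAJB1 rose by 0.88 (SE 0.046, adjusted p = 4.99e-13) with BRD siRNA, by 0.47 (SE 0.054, adjusted p = 1.08e-07) with JQ1 and by 0.23 with YAP/TAZ siRNA. The last value rested on mix 1 (0.39), since mix 2 gave 0.06, and it was -0.20 against the DMSO libraries.

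HSPA1A and HSPA1B are neighbouring copies on chromosome 6 that encode inducible HSP70. Of the 50-base windows of the HSPA1A transcript, 72.6% also occurred in HSPA1B, so the split of reads between them is uncertain. HSPA1B was 89.7 and 83.9 RPM with control siRNA, 106 and 108 with YAP/TAZ mix 1, 94.0 and 89.2 with mix 2, 154 and 164 with BRD mix A, and 128 and 126 with mix B, and it was 92.8 and 93.4 with DMSO and 147 and 141 with JQ1. The BRD siRNA and JQ1 libraries stood above all other libraries. HSPA1B rose by 0.70 (SE 0.049, adjusted p = 3.42e-11) with BRD siRNA and by 0.63 (SE 0.056, adjusted p = 2.32e-09) with JQ1. The rise of 0.19 with YAP/TAZ siRNA was not called in mix 2 alone (0.08) or against DMSO (0.09). HSPA1A was 18.2 and 15.8 RPM with control siRNA, 17.8 to 20.1 with YAP/TAZ siRNA, 28.5 and 33.9 with BRD mix A, 15.9 and 16.8 with mix B, 15.2 and 14.5 with DMSO, and 18.5 and 17.9 with JQ1. Mix A stood apart from every other group, and the mixes differed by 0.89 (SE 0.094, adjusted p = 9.83e-08), with 0.84 for mix A and -0.05 for mix B. The HSPA1A rise of 0.28 with JQ1 was lost without DMSO replicate 2 (adjusted p = 0.074) or JQ1 replicate 1 (0.0636), and the change with YAP/TAZ siRNA (0.13, adjusted p = 0.156) was called without control siRNA replicate 1 (0.22, adjusted p = 0.0459).

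The promoters of HSPA1A, HSPA1B and DNAJB1 also hold the GAANNTTC letters, shown in capitals. That of HSPB1 held them too and is not shown. The HSPH1 window held neither GAANNTTC nor TTCNNGAA, and neither did the DNAJB1 windows at its other starts. The windows are chr6:31815393-31815463 (plus strand) for HSPA1A and chr6:31827588-31827658 (plus strand) for HSPA1B, both 150 to 80 bases before the start, and chr19:14518428-14518517 (minus strand) for DNAJB1, 120 to 31 bases before it. The HSPA1A and HSPA1B stretches are shown together because the copies are so alike.
HSPA1A: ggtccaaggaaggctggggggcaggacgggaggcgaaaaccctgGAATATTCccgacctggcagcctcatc
HSPA1B: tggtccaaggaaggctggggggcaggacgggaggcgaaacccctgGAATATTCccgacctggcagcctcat
DNAJB1: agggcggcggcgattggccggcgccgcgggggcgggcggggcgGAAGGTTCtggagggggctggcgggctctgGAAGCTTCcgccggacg

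**Figure D4:**
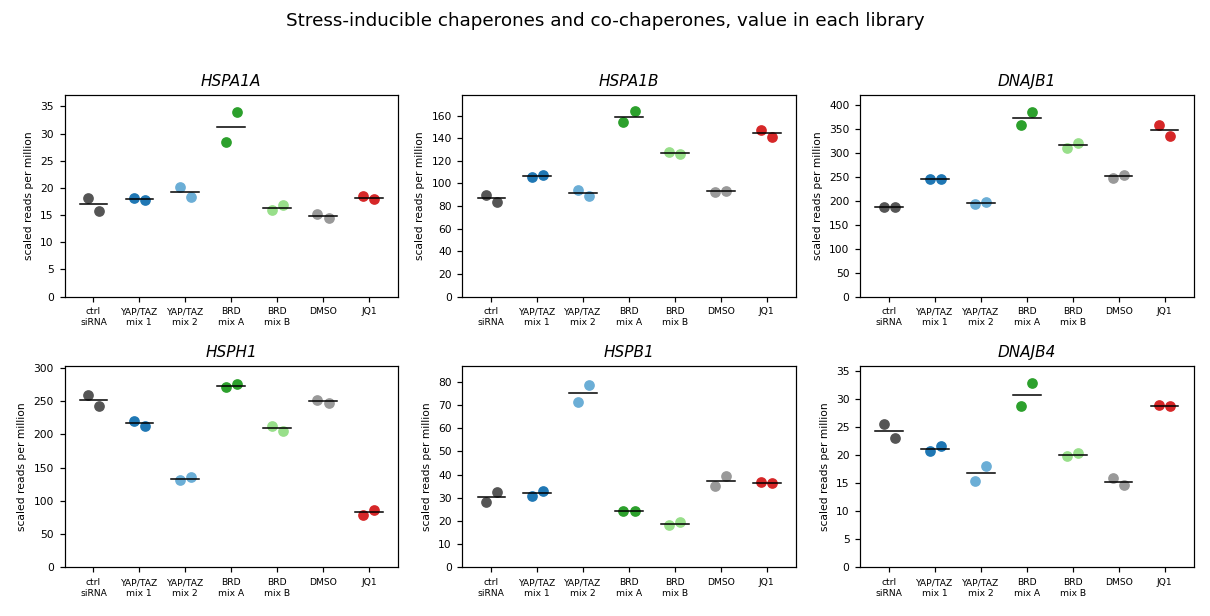
Scaled RPM (y axis, from 0) of 6 stress-inducible chaperones and co-chaperones in the 7 groups (x axis). Dots are the 2 libraries of a group and the line is their mean. HSPA1B and DNAJB1 are highest with BRD siRNA and JQ1, HSPH1 is lowest with JQ1, and HSPB1 is highest with YAP/TAZ mix 2.

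HSPB1 (HSP27), a small heat shock protein that holds unfolded chains without ATP, differed between the YAP/TAZ mixes. It was 28.4 and 32.7 RPM with control siRNA, 31 and 32.8 with mix 1 and 71.2 and 78.7 with mix 2. Mix 1 overlapped the controls and mix 2 did not, a difference between mixes of -1.20 (SE 0.080, adjusted p = 3.19e-11). The mean of the mixes gave a log2 fold change of 0.67 (adjusted p = 1.77e-08), and mix 1 alone gave 0.06. With BRD siRNA HSPB1 fell to between 18.3 and 24.3 (log2 fold change -0.49), and with JQ1 it was 36.7 and 36.3 against 35.3 and 39.3 with DMSO (-0.03, adjusted p = 0.766). HSPB8, a small heat shock protein on the list of named genes, had no row in the deposited expression table and so was not analysed here. HSPB11, which despite its name works in transport along cilia, fell with YAP/TAZ siRNA by 0.32 and with BRD siRNA by 0.34. The BRD change of HSPB11 came from mix B (-0.59), as mix A gave -0.08. HSPB11 was 47.9 and 45.1 RPM with JQ1 against 54.0 and 52.6 with DMSO (-0.19, adjusted p = 0.0275), a call that was lost without DMSO replicate 1, DMSO replicate 2 or JQ1 replicate 2 (adjusted p of 0.122, 0.0596 and 0.169). HSPBAP1 fell with JQ1 by 1.08, from 6.61 and 6.52 RPM to 2.65 and 2.53.

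Of the 8 genes of the CCT complex, the cytosolic chaperonin of actin and tubulin, 7 fell and 1 rose with YAP/TAZ siRNA, at a median log2 fold change of -0.69, and the range over the 7 that fell was -1.17 (CCT8) to -0.57 (CCT3). With BRD siRNA 6 fell and 1 rose (median -0.21), and with JQ1 6 fell and 0 rose (median -0.46). Of all genes tested, 35.9% fell and 43.1% rose with YAP/TAZ siRNA, 37.6% and 37.6% with BRD siRNA, and 36.3% and 37.6% with JQ1. CCT5 was 790 and 756 RPM with control siRNA, 393 and 409 with YAP/TAZ mix 1, 379 and 413 with mix 2, and 592 to 687 in the 4 BRD siRNA libraries. It was 1022 and 972 with DMSO and 656 and 679 with JQ1. All treated libraries were below their controls, with log2 fold changes of -0.95 (SE 0.055, adjusted p = 1.45e-12), -0.26 (adjusted p = 0.000265) and -0.58 (SE 0.064, adjusted p = 5.63e-08). CCT8 was 406 and 371 RPM with control siRNA, 231 and 234 with mix 1 and 123 and 131 with mix 2, so mix 2 was the lower, and the mixes differed by 0.86 (SE 0.064, adjusted p = 1.86e-10). CCT4 showed the opposite order, with 257 and 249 RPM in mix 1 and 362 and 376 in mix 2, against 576 and 517 with control siRNA.

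CCT7 was called with YAP/TAZ siRNA and not with BRD siRNA or JQ1. It was 448 and 445 RPM with control siRNA, 239 to 323 with YAP/TAZ siRNA (log2 fold change -0.69), 450 to 498 with BRD siRNA (0.06, adjusted p = 0.259), and 610 and 596 with JQ1 against 658 and 637 with DMSO (-0.10, adjusted p = 0.116). The JQ1 change was called with plain library totals (-0.17) and with median-ratio scaling (-0.14), and the BRD change was -0.06 with plain totals or quantile normalization. CCT2 and CCT3 fell with BRD siRNA by only 0.17 and 0.14. The CCT2 fall ended on leaving out replicate 1 of control siRNA (adjusted p = 0.157), and the CCT3 fall without control siRNA replicate 1 or 2, mix A replicate 1 or mix B replicate 1 (adjusted p of 0.0555 to 0.0707). CCT6B, a paralogue of CCT6A best known from testis, was 1.55 and 1.69 RPM with control siRNA and 3.98 to 4.60 with BRD siRNA, a rise of 1.00 at a low level. TCP1, the CCT subunit whose name the rule does not take, was 465 and 426 RPM with control siRNA, 204 to 248 with YAP/TAZ siRNA, 243 to 294 with BRD siRNA, and 347 and 347 with JQ1 against 573 and 536 with DMSO. It fell in all 3 comparisons, by 0.99, 0.77 and 0.68.

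Of the mitochondrial chaperones, HSPD1, HSPE1 and HSPA9 fell in each comparison. HSPD1 (HSP60) and HSPE1 (HSP10) form the chaperonin of the matrix, and HSPA9 (mortalin) is the matrix HSP70 that also pulls proteins in. HSPD1 was 674 and 617 RPM with control siRNA, 275 and 278 with YAP/TAZ mix 1, 207 and 219 with mix 2, 397 and 437 with BRD mix A, and 473 and 468 with mix B, and it was 874 and 828 with DMSO and 491 and 496 with JQ1. It fell by 1.41 (SE 0.052, adjusted p = 8.94e-16), 0.54 (SE 0.052, adjusted p = 6.6e-09) and 0.78 (SE 0.060, adjusted p = 1.81e-10) with YAP/TAZ siRNA, BRD siRNA and JQ1. HSPE1 was 83.9 and 87.3 RPM with control siRNA, 27.7 to 36.6 with YAP/TAZ siRNA, 58.2 to 78.6 with BRD siRNA, 131 and 117 with DMSO, and 53.6 and 50.7 with JQ1. The genes share a bidirectional promoter region, and no group overlapped its control for either gene. HSPE1 fell by 1.36, 0.37 and 1.23, and its JQ1 effect was lower than its BRD siRNA effect by -0.86 (SE 0.101, adjusted p = 3.37e-07).

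HSPA9 was 582 and 528 RPM with control siRNA, 234 to 241 in the 4 YAP/TAZ siRNA libraries, 374 to 506 with BRD siRNA, and 362 and 364 with JQ1 against 767 and 739 with DMSO. It fell by 1.22 (SE 0.052, adjusted p = 9.35e-15), 0.38 and 1.05. Among all 8 members of the mitochondrial list, 5 fell and 1 rose with YAP/TAZ siRNA, 6 fell and 1 rose with BRD siRNA, and 7 fell and 0 rose with JQ1, at medians of -0.78, -0.38 and -0.56. The shares of all genes that fell and rose were 35.9% and 43.1%, 37.6% and 37.6%, and 36.3% and 37.6%. DNAJA3, the J-domain partner of HSPA9, fell from 66.1 and 70.8 RPM to 28.4 to 34.7 with YAP/TAZ siRNA (-1.10, adjusted p = 5.91e-13). The DNAJA3 change with BRD siRNA, -0.26, was -0.14 and not called in mix A alone. DNAJC15 and DNAJC19, J-domain genes of the import motor, were not called with YAP/TAZ siRNA (0.01 and -0.12) and fell with BRD siRNA (-0.48 and -0.46) and JQ1 (-0.44 and -0.25). The exception among the 8 was DNAJC30, a mitochondrial J-domain gene at 4.48 and 4.76 RPM with control siRNA and 8.91 to 11.5 with BRD siRNA, a rise of 0.98 (SE 0.11, adjusted p = 5.32e-08). Its JQ1 libraries, at 4.21 and 4.85, were level with DMSO at 4.15 and 4.80.

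HSPA5 (BiP), the HSP70 of the ER that keeps the sensors of the unfolded protein response inactive, was 265 and 263 RPM with control siRNA, 171 and 166 with YAP/TAZ mix 1, 185 and 209 with mix 2, 342 and 391 with BRD mix A, and 331 and 329 with mix B. DMSO gave 257 and 266 and JQ1 389 and 405. The YAP/TAZ libraries were the lowest of all and the BRD siRNA and JQ1 libraries the highest. HSPA5 fell by 0.54 (SE 0.056, adjusted p = 2.12e-08) with YAP/TAZ siRNA and rose by 0.39 (SE 0.056, adjusted p = 2.08e-06) with BRD siRNA and by 0.60 (SE 0.065, adjusted p = 4.09e-08) with JQ1. The JQ1 and YAP/TAZ siRNA effects differed by 1.14 (SE 0.086, adjusted p = 3.64e-10).

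HSP90B1 (GRP94), the HSP90 of the ER, split the YAP/TAZ mixes. It was 847 and 810 RPM with control siRNA, 1460 and 1392 with mix 1 and 685 and 731 with mix 2, so mix 1 lay above the controls and mix 2 below them. The mixes gave 0.78 and -0.23, and the difference was 1.01 (SE 0.061, adjusted p = 7.49e-12). DNAJB11, an ER co-chaperone of BiP, split the same way, with 128 and 130 RPM in mix 1 and 59.8 and 56.0 in mix 2 around controls of 99.6 and 91.4, a difference of 1.14 (SE 0.066, adjusted p = 3.55e-12). Their mean over the mixes is therefore no description of either mix, and the DNAJB11 mean change (-0.14, adjusted p = 0.0299) was also lost on leaving out replicate 1 of control siRNA (adjusted p = 0.316), replicate 1 of mix 1 (0.0611) or replicate 2 of mix 2 (0.0922). With BRD siRNA HSP90B1 rose to between 997 and 1125 RPM (0.36), and with JQ1 from 714 and 705 to 924 and 942 (0.40). DNAJB11 fell with BRD siRNA, to between 68.5 and 86.2 (-0.27), and with JQ1, from 105 and 102 to 55.0 and 56.1 (-0.89, SE 0.066, adjusted p = 1.12e-10).

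DNAJB9 (ERdj4), which brings misfolded clients to BiP, was 19.6 and 18.1 RPM with control siRNA, 39.6 and 37.4 with YAP/TAZ mix 1, 21.0 and 21.2 with mix 2, 29.6 to 33.6 with BRD siRNA, 11.2 and 9.97 with DMSO, and 18.5 and 19.2 with JQ1. It rose by 0.58 with YAP/TAZ siRNA (0.16 and not called in mix 2 alone), 0.69 with BRD siRNA and 0.78 with JQ1. The DMSO libraries were the lowest, 0.78 below control siRNA. DNAJC3 (P58IPK), an ER co-chaperone, was 134 and 123 RPM with control siRNA, 84.7 to 96.7 with YAP/TAZ siRNA (-0.47, adjusted p = 4.43e-07), 143 to 167 with BRD siRNA (0.28) and 131 and 130 with JQ1 against 132 and 121 with DMSO (0.04, adjusted p = 0.575). HSPA13, a microsomal HSP70, was 141 and 110 RPM with control siRNA, 184 and 178 with mix 1, 91.0 and 95.3 with mix 2, 143 and 177 with BRD mix A, and 75.2 and 75.6 with mix B. It split both pairs of mixes, by 0.95 (adjusted p = 8.93e-09) and 1.07 (adjusted p = 3.76e-09), and the 2 control libraries also lay apart. Its BRD siRNA mean change of -0.18 (adjusted p = 0.0413) was -0.0046 without control siRNA replicate 1, and was also lost without mix A replicate 1, mix B replicate 1 or mix B replicate 2 (adjusted p of 0.0648 to 0.167). HSPA13 was 120 and 120 RPM with JQ1 against 143 and 135 with DMSO, and that call (-0.21, adjusted p = 0.0428) was lost without any 1 of the 4 libraries. DNAJC10, the ER disulfide reductase ERdj5, was 156 to 205 RPM over all 14 libraries, and its log2 changes were -0.04, -0.12 and -0.21. The BRD call for DNAJC10 was lost without any 1 of 4 libraries (control siRNA replicate 1, mix A replicate 1 and both mix B replicates, adjusted p of 0.0682 to 0.359), and its JQ1 call without DMSO replicate 1 (0.0586).

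Over the 10 ER members, 3 rose and 3 fell with YAP/TAZ siRNA (median 0.0093), 5 rose and 4 fell with BRD siRNA (0.20), and 5 rose and 3 fell with JQ1 (0.14), where 43.1% and 35.9%, 37.6% and 37.6%, and 37.6% and 36.3% of all genes did. Between the YAP/TAZ mixes, 6 of the 10 were higher in mix 1 and 2 lower, at a median of 0.61, where 30.9% and 34.8% of all genes were. The ER stress element, searched as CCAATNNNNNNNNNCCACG on both strands, occurred in the promoters of 2 of the 61 member genes (3.28%), HSPA5 and HSP90B1, and of 0.0916% of all genes. These promoters are shown because the genes rose with BRD siRNA and JQ1 but parted with YAP/TAZ mix 1, and the matches are in capitals. HSP90B1 is given from 200 to 71 bases before the start (chr12:103930210-103930339, plus strand), with 1 match on each strand, and HSPA5 from 120 to 1 bases before it (chr9:125241344-125241463, minus strand). Of the HSP90B1 stretch, 6 bases fall in a UTR that GENCODE 29 annotates.
HSP90B1: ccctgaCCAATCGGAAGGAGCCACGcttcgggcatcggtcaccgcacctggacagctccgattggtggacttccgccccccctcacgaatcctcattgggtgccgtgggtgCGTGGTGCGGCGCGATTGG
HSPA5: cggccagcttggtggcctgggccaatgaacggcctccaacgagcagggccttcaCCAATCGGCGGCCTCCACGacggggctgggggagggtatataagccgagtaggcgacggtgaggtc

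**Figure D5:**
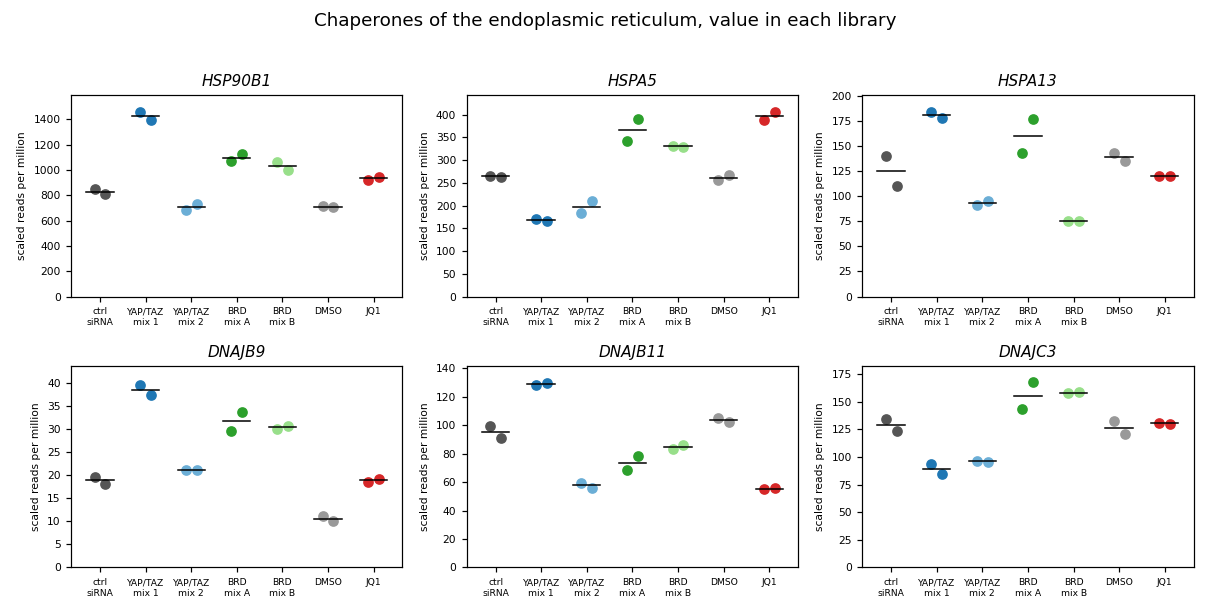
Scaled RPM (y axis, from 0) of 6 ER members in the 7 groups (x axis). Dots are the 2 libraries of a group and the line is their mean. HSP90B1, HSPA13 and DNAJB11 lie above the control siRNA libraries in YAP/TAZ mix 1 and below them in mix 2, and HSPA5 is lowest in both mixes.

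HSPA14 and DNAJC2 (MPP11) fell in each comparison. They form the ribosome-associated complex that meets new chains as they leave the ribosome. HSPA14 was 101 and 95.3 RPM with control siRNA, 45.9 to 51.8 with YAP/TAZ siRNA, 57.2 to 63.3 with BRD siRNA, 116 and 107 with DMSO, and 40.8 and 44.3 with JQ1. It fell by 0.98 (SE 0.060, adjusted p = 3.63e-12), 0.70 (SE 0.060, adjusted p = 1.12e-09) and 1.37 (SE 0.069, adjusted p = 2.17e-13). DNAJC2 was 20.4 and 24.0 RPM with control siRNA, 11.2 to 12.4 with YAP/TAZ siRNA, 14.8 to 16.9 with BRD siRNA, 33.7 and 34.7 with DMSO, and 11.3 and 13 with JQ1, with falls of 0.87, 0.46 and 1.42. For both genes every treated library lay below its controls, and the JQ1 effect was lower than the BRD siRNA effect (log2 differences of -0.67, adjusted p = 2.42e-06, and -0.97, adjusted p = 1.37e-06). DNAJC21, which acts in the maturation of the large ribosomal subunit, rose with JQ1 and, mainly in mix A, with BRD siRNA. It was 53.7 and 53.2 RPM with DMSO and 77.5 and 79.1 with JQ1 (0.54, adjusted p = 6.93e-08). With control siRNA it was 56.9 and 54, with BRD mix A 72.8 and 76.4, and with mix B 60.2 and 55.2. The change over both BRD mixes was 0.24 (adjusted p = 0.000366), but mix B overlapped the controls. With YAP/TAZ siRNA DNAJC21 was 56.3 and 54.6 in mix 1 and 49.9 and 49.4 in mix 2, which lay below both controls.

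DNAJC9, a histone H3-H4 chaperone that also recruits HSP70, had the largest fall of any member with YAP/TAZ siRNA. It was 180 and 183 RPM with control siRNA, 44.6 and 43.7 with YAP/TAZ mix 1, 54.5 and 55.9 with mix 2, 78.3 and 80.1 with BRD mix A, and 76.4 and 79.8 with mix B. DMSO gave 241 and 235, and JQ1 108 and 108. DNAJC9 fell by 1.86 (SE 0.046, adjusted p = 1.74e-18), 1.20 (SE 0.046, adjusted p = 2.5e-15) and 1.13 (SE 0.053, adjusted p = 6.45e-14). With BRD siRNA DNAJC22 alone had a lower value (-1.30), at under 5 RPM in every library of that comparison.

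Of the 25 DNAJC genes, 8 rose and 9 fell with YAP/TAZ siRNA, 9 rose and 10 fell with BRD siRNA, and 10 rose and 10 fell with JQ1, shares near those of all genes (43.1% and 35.9%, 37.6% and 37.6%, and 37.6% and 36.3%). Of the 9 DNAJB genes, 5 rose and 3 fell with YAP/TAZ siRNA, 6 rose and 2 fell with BRD siRNA, and 6 rose and 1 fell with JQ1, at medians of 0.23, 0.43 and 0.47. DNAJB2, which sorts ubiquitylated clients, was 19.0 and 21.9 RPM with control siRNA, 40.9 to 43.5 with YAP/TAZ siRNA, 26.2 to 32.6 with BRD siRNA, 16.0 and 16.6 with DMSO, and 37.6 and 38.3 with JQ1. It rose in all 3 comparisons, by 1.03 (SE 0.067, adjusted p = 9.53e-12), 0.47 and 1.17 (SE 0.077, adjusted p = 1.64e-11), with no overlap. DNAJB4 was 25.5 and 22.9 RPM with control siRNA, 15.5 to 21.5 with YAP/TAZ siRNA, 28.6 and 32.8 with BRD mix A, 19.8 and 20.3 with mix B, 15.9 and 14.6 with DMSO, and 28.9 and 28.6 with JQ1. Its rise with JQ1 (0.87, adjusted p = 1.99e-08) ended near the level of control siRNA, and its fall with YAP/TAZ siRNA (-0.35) was 0.29 against DMSO. DNAJB6, which keeps polyglutamine proteins from aggregating, rose with BRD siRNA from 217 and 217 RPM to between 282 and 314 (0.43) and fell with YAP/TAZ siRNA (-0.25), though not in mix 1 alone (-0.05). DNAJB5 changed by 0.23 with either knockdown (-0.12 in YAP/TAZ mix 1 alone) and by 0.50 with JQ1. The calls for DNAJB5 with YAP/TAZ siRNA were lost without either control siRNA replicate or mix 2 replicate 2 (adjusted p of 0.0514 to 0.0609), and the call with BRD siRNA without control siRNA replicate 1 (0.0547).

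Among the cytosolic DNAJA genes, partners of HSPA8, DNAJA1 fell with JQ1 from 371 and 356 RPM to 229 and 236 (-0.64, SE 0.059, adjusted p = 3.47e-09). With control siRNA it was 331 and 344, with YAP/TAZ siRNA 284 to 303 (-0.19), and with BRD siRNA 323 to 389, around the controls (0.03, adjusted p = 0.597). DNAJA2 rose with YAP/TAZ siRNA, from 131 and 119 to between 148 and 164 (0.32), and was 81.6 and 92.2 with BRD mix A against 130 and 128 with mix B, a difference between mixes of -0.56 (adjusted p = 1.96e-07). DNAJC7, which bridges HSP70 and HSP90, was 75.9 and 67.1 RPM with control siRNA, 103 to 107 with YAP/TAZ siRNA, 63.5 to 76.1 with BRD siRNA, 121 and 117 with DMSO, and 64.1 and 62.8 with JQ1. It rose with YAP/TAZ siRNA (0.56) and fell with JQ1 (-0.89), and the effects differed by -1.45 (SE 0.080, adjusted p = 3.06e-12). The DNAJC7 level of YAP/TAZ siRNA was nevertheless below DMSO (-0.17), since DMSO and control siRNA differed by 0.73 (adjusted p = 4.05e-09).

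J-domain genes with roles away from folding also moved. DNAJC13, an endosome protein, was 79.7 and 81.0 RPM with control siRNA and 109 to 140 with BRD siRNA, a rise of 0.64 (SE 0.050, adjusted p = 2.52e-10), and DNAJC5, which guards synaptic vesicle proteins, rose by 0.20, 0.39 and 0.49. DNAJC6 (auxilin), which strips clathrin from vesicles, rose with JQ1 from 30.8 and 32.1 to 57.0 and 54.1 (0.80, adjusted p = 3.23e-08) and split the YAP/TAZ mixes, at 14.6 and 15.1 in mix 1 and 27.6 and 26.4 in mix 2. DNAJC17, linked to splicing, fell in each comparison (-0.43, -0.59 and -1.13), with 4.81 and 4.95 RPM in JQ1 against 12.2 and 11.6 in DMSO. DNAJB12, which sits in the ER membrane, was 81.2 and 85.1 with control siRNA, 96 to 105 with YAP/TAZ siRNA and 48.0 to 65.2 with BRD siRNA, so it rose by 0.27 and fell by 0.56. DNAJC14 was 29 and 31.4 in YAP/TAZ mix 1 and 56.3 to 64.1 in each of the other 12 libraries, so its fall of 0.45 over both mixes came from mix 1.

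Several of the largest rises were of genes at low level. DNAJC4 went from 3.36 and 4.82 RPM with control siRNA to 10.6 and 10.6 with YAP/TAZ mix 1, 17.0 and 15.1 with mix 2 and 7.78 to 9.38 with BRD siRNA, rises of 1.48 (SE 0.12, adjusted p = 2.02e-10) and 0.93. With JQ1 it was 5.38 and 5.02 against 2.82 and 3.59 with DMSO, a rise of 0.56. DNAJC18 rose with YAP/TAZ siRNA from 14.7 and 13.9 to between 26.7 and 36.1 (1.04) and fell with BRD siRNA, to 7.02 and 7.96 in mix A and 13.4 and 13.2 in mix B (-0.47). DNAJC28 was 1.23 and 1.5 RPM with control siRNA, 2.09 to 5.95 with YAP/TAZ siRNA, 2.51 to 3.03 with BRD siRNA, 1.17 and 0.939 with DMSO, and 5.17 and 4.99 with JQ1. It had the largest rise of any member with JQ1 (1.57, SE 0.13, adjusted p = 3.78e-10). DNAJC22 parted the treatments most. It was 4.53 and 2.95 RPM with control siRNA, 6.59 and 6.90 with mix 1, 15.9 and 16.1 with mix 2, 0.561 to 1.29 with BRD siRNA, 4.15 and 3.73 with DMSO, and 0.883 and 1.19 with JQ1. It rose with YAP/TAZ siRNA by 1.29 (SE 0.13, adjusted p = 7.02e-09) and fell with BRD siRNA by 1.30 and with JQ1 by 1.28. The JQ1 and YAP/TAZ siRNA effects differed by -2.57 (SE 0.19, adjusted p = 3.22e-10) and the JQ1 and BRD siRNA effects by 0.03 (adjusted p = 0.918).

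HSPA12A, HSPA1L and HSPA2 were scarce. HSPA12A, a distant HSP70 relative, rose from 3.89 and 3.43 RPM with control siRNA to 4.41 to 7.69 with YAP/TAZ siRNA (0.58) and 4.52 to 5.97 with BRD siRNA (0.39), and from 5.35 and 4.89 with DMSO to 9.43 and 9.80 with JQ1 (0.80, adjusted p = 1.02e-05). Against DMSO the HSPA12A change with YAP/TAZ siRNA was 0.19 and not called. HSPA1L, the neighbour of HSPA1A, rose with YAP/TAZ siRNA from 1.33 and 1.08 to between 2.48 and 3.20 (0.79). HSPA2, known for its role in male germ cells, was 1.33 and 1.63 RPM with control siRNA, 0.769 and 0.468 with mix 1, 1.66 and 1.88 with mix 2, and 0.521 to 0.714 with BRD siRNA. HSPA2 fell with BRD siRNA (-0.62, adjusted p = 6.46e-05) and with JQ1 (-0.48, adjusted p = 0.0031), the latter not without DMSO replicate 2 (adjusted p = 0.063). The HSPA2 change with YAP/TAZ siRNA (-0.23, adjusted p = 0.0781) was called without mix 1 replicate 1 (-0.30, adjusted p = 0.0343) and differed in sign between the mixes.

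Co-chaperones and regulators outside the name rule were read from a list of 49 genes, of which 48 were tested. With YAP/TAZ siRNA 15 rose and 28 fell (median -0.26), with BRD siRNA 17 rose and 18 fell (0.00048), and with JQ1 15 rose and 25 fell (-0.18). As shares of the list these were 31.2% and 58.3%, 35.4% and 37.5%, and 31.2% and 52.1%. Over all genes they were 43.1% and 35.9%, 37.6% and 37.6%, and 37.6% and 36.3%, so the BRD siRNA counts are near the background. HSF1 was 68.8 and 80.6 RPM with control siRNA, 63.3 to 77 with YAP/TAZ siRNA, 113 to 138 with BRD siRNA, 88.4 and 87.4 with DMSO, and 85.3 and 85.0 with JQ1. It rose with BRD siRNA (0.72, SE 0.058, adjusted p = 4.88e-10) and was not called with YAP/TAZ siRNA (-0.10, adjusted p = 0.134) or JQ1 (-0.04, adjusted p = 0.563). BAG3, a further HSF1 target that links HSP70 to autophagy, rose in all 3 comparisons, by 0.84, 0.54 and 0.53. STIP1 (HOP), which hands clients from HSP70 to HSP90, fell by 0.58, 0.30 and 0.40. The HSP90 cochaperones FKBP4 and PTGES3 fell by 1.27, 0.32 and 0.61 and by 0.83, 0.37 and 0.44. Not every gene of the list fell with them. CDC37 was 323 and 355 RPM with control siRNA, 277 to 337 with YAP/TAZ siRNA and 443 to 456 with BRD siRNA. With JQ1 CDC37 was 540 and 544 RPM, against 447 and 457 with DMSO. STUB1 rose by 0.33 and 0.64 in YAP/TAZ mixes 1 and 2. With JQ1 STUB1 was 129 and 122 RPM, against 55.5 and 56.2 with DMSO. ST13 (HIP) rose from 86.6 and 81.6 RPM with control siRNA to between 196 and 212 with YAP/TAZ siRNA (1.27) and between 166 and 206 with BRD siRNA (1.15). It stayed at 157 and 164 RPM with JQ1 against 164 and 159 with DMSO. The knockdown libraries of ST13 thus lay nearer to DMSO than to control siRNA. TRAP1, the HSP90 of mitochondria, fell with YAP/TAZ siRNA from 95.1 and 98.3 RPM to between 26.7 and 41.5 (-1.46, adjusted p = 4.11e-15). It was 89.0 to 100 with BRD siRNA (-0.03, adjusted p = 0.658), and 115 and 116 with JQ1 against 146 and 147 with DMSO.

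JQ1 and the knockdowns have separate controls, so the members called in both can be counted. Of the 33 members that fell with YAP/TAZ siRNA, 24 also fell with JQ1 (72.7% of the 33 and 75% of the 32 that fell with JQ1). Over all genes tested these shares were 64.3% and 63.4%, and 23.1% of all genes fell in both. Of the 31 members that fell with BRD siRNA, 24 also fell with JQ1 (77.4% and 75%, against 64.1% and 66.3% over all genes, of which 24.1% fell in both). Among rises, 12 members were shared by YAP/TAZ siRNA and JQ1 (60% and 54.5%, against 55.9% and 64.1%) and 17 by BRD siRNA and JQ1 (73.9% and 77.3%, against 64.3% and 64.4%), where 24.1% and 24.2% of all genes rose in both. The members' shares thus lay above those of all genes except 1, for rises with JQ1 shared with YAP/TAZ siRNA, which lay below. These gaps rest on few members and were not tested.

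Tested as a difference of effects, 14 members had a higher JQ1 effect than BRD siRNA effect and 27 a lower one, where 30.2% and 29.9% of all genes did (60.1% in either direction). With upper-quartile scaling this split was 18 and 22. HSPH1, HSPBAP1 and DNAJC30 had the lowest differences (-1.51, -1.04 and -0.97) and DNAJC28, HSPA4L and DNAJB4 the highest (0.88, 0.85 and 0.84) among the genes the rule names. The doses differ in kind and time (24 h of inhibitor, 72 h of siRNA), so these differences set unequal exposures side by side. Against the YAP/TAZ siRNA effect, 29 members had a higher JQ1 effect and 16 a lower one (30.9% and 32.4% of all genes), and 22 and 22 with plain library totals.

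The siRNA mixes against the same targets also differed. Between the YAP/TAZ mixes, 21 members were higher and 27 lower in mix 1 (30.9% and 34.8% of all genes, 65.7% in either direction), and the 2 mixes called 7 members in opposite directions against control siRNA, where 7.25% of all genes were. Between the BRD mixes, 22 were higher and 12 lower in mix A (25.7% and 24.3% of all genes), 16 and 16 with plain library totals and 18 and 13 with upper-quartile scaling, and 3 members were called in opposite directions, where 4.06% of all genes were. Without mix A replicate 2 the count of higher members was 14, and without mix B replicate 1 the count of lower members was 7. Taken alone against control siRNA, mix 1 gave 18 members higher and 36 lower (40.6% and 33.6% of all genes) and mix 2 gave 18 and 36 (42.7% and 35.7%), while mix A gave 25 and 27 (37.2% and 36.1%) and mix B 20 and 28 (35.3% and 35.5%). DNAJC16 was the member with the lowest difference between YAP/TAZ mixes, at 17.4 and 16.7 RPM in mix 1, 44.6 and 44.1 in mix 2, and 26.1 and 21.8 with control siRNA (-1.33, SE 0.084, adjusted p = 1.58e-11).

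The 2 kinds of control were not alike for chaperones. Of the 67 members, 32 were higher and 10 lower with DMSO than with control siRNA, where 28.7% of all genes were higher and 25.4% lower (54.2% in either direction), and the median was 0.16 for members and 0.011 for all genes. With plain library totals the split was 25 and 17. Of the 8 CCT genes, 7 were higher with DMSO (median 0.39), as were HSPD1, HSPE1, HSPA9 and HSPA8. HSP90AA1 was the highest, at 0.78 (SE 0.079, adjusted p = 6.53e-08). Of the 9 DNAJB genes, 6 were lower with DMSO and 2 higher. The transfection, the vehicle and the harvest time cannot be told apart in this comparison. Read against the DMSO libraries in place of control siRNA, 20 members were higher and 40 lower with YAP/TAZ siRNA (44.4% and 39.8% of all genes), and 22 higher and 38 lower with BRD siRNA (39.1% and 39.7%).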

How the data were processed

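Total RNA was extracted with the RNeasy kit, and per the labels' protocols the stranded libraries were depleted of ribosomal RNA. Per the submitters' processing notes, the tools were CASAVA 1.8.4, TopHat2 2.0.5, HTSeq 0.6.0, edgeR and R 3.0.0, with genome build hg19; no source used here gives the strand setting of HTSeq. The authors deposited 1 table of 13734 genes in 14 libraries whose values are a scaled signal: gene counts divided by a library size that includes a scaling factor, so that columns summed to 903627 to 1098052. The value of 1 read was 0.0276 to 0.0602, and 100% of the values came out as whole reads at a tolerance of 0.01. The design had assumed CPM, and the same log-scale test was used.

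Values were tested as log2(value + 1) with limma 3.58.1 (R 4.3.3), with a variance trend, in 1 model of 7 group means (residual df 7), over the 13674 genes that reached 1 in at least 2 libraries, with Benjamini-Hochberg adjusted p under 0.05. Knockdown effects are the mean of both mixes. The limma fit of JQ1 against DMSO was tested on simulated data, and the other comparisons, fits and steps were not. On recovered reads, the quasi-likelihood test of edgeR 4.0.16 called 5746 genes higher and 4870 lower with YAP/TAZ siRNA, 5034 and 5126 with BRD siRNA, and 5253 and 5077 with JQ1. DESeq2 1.42.0 called 5069 and 4937, 4656 and 4947, and 4739 and 5054. Other alternatives were the pseudocount, the filter, 4 other scalings, a replicate block, no trend, only the libraries compared, single mixes, DMSO as control, and leaving out each library.

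Lengths are exon unions of GENCODE 29 and promoters are RefSeq, GRCh38.p14. Libraries of 1 group differed by more than sampling noise (chi-square per gene of 3.46 to 10.75). Genes named are a core of family members of known role plus the largest called changes in each comparison whose groups did not overlap and whose higher mean was at least 5; those outside it (CCT6B, DNAJC5, DNAJC14, HSPA1L, DNAJC15, DNAJC19, DNAJC21 and partner genes) were chosen after their values were seen. The members and lists were chosen with earlier results of these data known. The level of 1 targeted gene is not reported here.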

Additional observations from a re-analysis of the deposited data

Results flagged for a closer look

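In 10 cases the siRNA mixes against the same targets gave called changes of opposite direction against control siRNA, each with a tested difference between the mixes (limma adjusted p). Of all 13674 genes tested, 7.25% met the same rule with YAP/TAZ siRNA and 4.06% with BRD siRNA. Both mixes were compared with the same 2 control libraries. With YAP/TAZ siRNA this held for 7 members. DNAJB11 differed by 1.14 (0.43 in mix 1 and -0.71 in mix 2, adjusted p = 3.55e-12) and HSP90B1 by 1.01 (0.78 and -0.23, adjusted p = 7.49e-12). HSPA13 differed by 0.951 (0.54 and -0.41, adjusted p = 8.93e-09), and all 3 are on the ER list used here. DNAJB14, also on that list, differed by 0.707 (0.45 and -0.26, adjusted p = 4.51e-08). Mix 1 was lower for DNAJC16 at -1.33 (-0.46 and 0.87, adjusted p = 1.58e-11), DNAJC6 at -0.822 (-0.45 and 0.38, adjusted p = 3.58e-08) and DNAJC13 at -0.452 (-0.19 and 0.26, adjusted p = 7.7e-07).

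With BRD siRNA it held for 3 members. HSPA13 differed by 1.07 (0.35 in mix A and -0.71 in mix B, adjusted p = 3.76e-09), DNAJB4 by 0.589 (0.33 and -0.26, adjusted p = 1.4e-05) and DNAJC8 by -0.493 (-0.29 and 0.20, adjusted p = 2.01e-06). The part of off-target silencing in any of these differences was not tested.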

How the results depend on the processing

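With 2 libraries a group, small changes depend on single libraries. Of 316 counts of members under an alternative, 313 stayed within 1.5 times. The exceptions were 17 members lower with DMSO than control siRNA under plain library totals (10 as reported), 14 higher in BRD mix A than mix B without mix A replicate 2 (22), and 7 lower without mix B replicate 1 (12). Plain totals moved the median of all genes with BRD siRNA from -0.0047 to -0.11, and that of DMSO against control siRNA from 0.011 to -0.098. Leaving out each library gave 17 to 20 members higher and 32 to 35 lower with YAP/TAZ siRNA, 19 to 24 and 26 to 31 with BRD siRNA, 20 to 23 and 26 to 28 with JQ1, 28 to 32 and 9 to 11 for DMSO against control siRNA, 17 to 20 and 22 to 24 between YAP/TAZ mixes, 14 to 20 and 7 to 18 between BRD mixes, 10 to 15 and 23 to 30 for JQ1 minus BRD effects, and 24 to 30 and 14 to 17 for JQ1 minus YAP/TAZ effects. Replicate numbers did not pair the samples (correlations of -0.373 to 0.254, 7 of 21 pairs of groups over 0.1), and with the replicate block the counts were 20 and 33, 23 and 30, and 22 and 33 in the 3 main comparisons.

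Of the 159 results for single genes, direction changed in 7 values when a library was left out and in 35 under other settings. Under a single mix the values were -0.0524 (HSPA1A, BRD mix B), 0.161 (HSPA2, YAP/TAZ mix 2), -0.413 and 0.353 (HSPA13, YAP/TAZ mix 2 and BRD mix A), 0.121 (HSPH1, BRD mix A), -0.227 (HSP90B1, YAP/TAZ mix 2), -0.0471 and 0.041 (DNAJA1 and DNAJA2, BRD mix B), -0.258 (DNAJB4, BRD mix B), -0.118 and 0.431 (DNAJB5 and DNAJB11, YAP/TAZ mix 1) and 0.0292 (DNAJC10, YAP/TAZ mix 2). Against DMSO they were, with BRD siRNA, -0.0764 (HSPA4), -0.219 (HSP90AB1), -0.075 (DNAJA1) and -0.472 (CCT7), and, with YAP/TAZ siRNA, -0.0953 (HSPA13), -0.2 (DNAJB1) and 0.286 (DNAJB4). With BRD siRNA, upper-quartile scaling gave -0.00877 (DNAJA1) and -0.0016 (DNAJB4), plain totals -0.0957 (DNAJA1), -0.0854 (DNAJB4) and -0.0629 (CCT7), and quantile normalization -0.236 (HSP90AB1), -0.019 (DNAJA1) and -0.0553 (CCT7). With JQ1 the values were 0.0156 (HSPB1, upper-quartile), 0.00869 (HSPB1), 0.0202 (DNAJA2) and 0.0345 (DNAJB6) after quantile normalization, and -0.0222 (DNAJC3, plain totals). DNAJC10 with YAP/TAZ siRNA was 0.0246, 0.00465 and 0.0694 under upper-quartile, plain and quantile scaling. Leaving out each library gave ranges that crossed 0 for HSPA13 (-0.114 to 0.239) and DNAJC10 (-0.0978 to 0.00981) with YAP/TAZ siRNA, DNAJA1 (-0.0167 to 0.0776) and DNAJB4 (-0.0364 to 0.109, with -0.0114 without BRD mix A replicate 2) with BRD siRNA, and HSPB1 (-0.103 to 0.0475) and DNAJC3 (-0.0179 to 0.108) with JQ1. The cause was not tested.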
